A study of Homo sapiens with 50 samples.

Results

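The 10 genes described here form the feedback arm of fibroblast growth factor (FGF) signalling through the kinase ERK, with a pair of its ETS target genes. They are the phosphatase genes DUSP4, DUSP5 and DUSP6, the Sprouty genes SPRY1, SPRY2 and SPRY4, the Sprouty-related genes SPRED1 and SPRED2, and the ETS transcription factor genes ETV4 and ETV5. The rule that picks them uses gene symbols and no measured value. Each symbol stood in 1 row of both deposited tables, so the set is 10 of 57905 genes. All 10 reached at least 1 FPKM (fragments per kilobase of exon, scaled to the size of the library) in at least 2 libraries of both tables, the filter that left 17286 genes tested on days 3 and 5 and 18451 on days 7, 11 and 0.

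RNA was sequenced from H1, an established line of human embryonic stem cells that the labels call wild type, in 50 libraries that form 25 groups of 2. On days 3, 5, 7 and 11 the cultures had received IWP2, NaHCO3 and 2-DG together, IWP2 with NaHCO3, IWP2 alone, HCl alone, NaHCO3 alone, or nothing further (the differentiation control), and undifferentiated cells were taken at day 0. IWP2 blocks the secretion of WNT proteins, HCl is an acid, NaHCO3 is a base and a buffer, and 2-DG is 2-deoxyglucose, a sugar that cells take up like glucose and that blocks glycolysis. All groups, the control and the undifferentiated cells among them, carry the label of cardiac differentiation and come from a single cell line, and the study's design text describes spontaneous mesendoderm differentiation or cardiac differentiation driven by a WNT inhibitor, with the pH altered. The labels give no dose, time of addition or measured pH, and groups with another acid, another base or a matched salt were not analysed here. The 2-DG groups also contained IWP2 and NaHCO3, so the effect of 2-DG was measured only on top of both. The labels do not say whether the 2 libraries of a group came from separate cultures, so the p-values measure the spread between libraries, which may be technical.

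FGFs bind receptor tyrosine kinases on the cell surface, which act through RAS, RAF and MEK to phosphorylate ERK. Active ERK switches on a set of genes whose products turn the pathway down again. DUSP6 removes the phosphates from ERK in the cytoplasm, DUSP5 does so in the nucleus, and DUSP4 is a nuclear phosphatase with a wider choice of MAP kinases. Sprouty proteins dampen signalling between receptor and RAF, and SPRED proteins bring the RAS inactivator neurofibromin to the membrane. ETV4 and ETV5 are ETS factors of the PEA3 subfamily whose transcription follows FGF activity in embryonic tissues. FGF signalling takes part in mesoderm formation and in the growth of the early heart field, and the ligands FGF8 and FGF10 are known for their expression there.

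The promoters of 3 members are shown because ETS factors bind DNA motifs such as CCGGAA. It was the only ETS form searched for, so a promoter without a match may still hold shorter or other forms. These members also differed widely in how much their RNA moved. By the rule given below, DUSP6 was called changed in 13 of 20 treatment comparisons, SPRY1 in 11 and SPRY2 in none. Over all genes 12.3% of values were called in these comparisons. RefSeq start sites on GRCh38.p14 gave 10 promoters of 300 bases for 6 members (DUSP6, SPRY1, SPRY2, SPRY4, SPRED1 and SPRED2). CCGGAA, read on both strands, stood in 2 of those 10, against 17.2% of all 35116 promoters of the same length, and capitals mark it below. The matches are a description of letters and not of binding sites.
DUSP6 promoter (GRCh38.p14, chr12:89352452-89352751, minus strand, no match): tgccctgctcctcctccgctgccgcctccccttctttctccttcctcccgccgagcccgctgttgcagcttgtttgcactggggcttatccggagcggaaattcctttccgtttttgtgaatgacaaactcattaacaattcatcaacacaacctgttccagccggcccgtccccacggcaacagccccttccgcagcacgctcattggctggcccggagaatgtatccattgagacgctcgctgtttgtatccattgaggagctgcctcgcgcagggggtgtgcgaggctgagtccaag
SPRY1 promoter (GRCh38.p14, chr4:123398136-123398435, plus strand, match beginning 67 bases before the start site): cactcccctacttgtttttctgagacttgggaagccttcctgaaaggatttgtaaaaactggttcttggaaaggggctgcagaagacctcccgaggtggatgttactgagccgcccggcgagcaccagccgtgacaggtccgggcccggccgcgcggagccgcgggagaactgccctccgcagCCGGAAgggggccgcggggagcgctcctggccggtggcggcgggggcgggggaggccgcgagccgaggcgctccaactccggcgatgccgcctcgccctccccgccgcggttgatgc
SPRY2 promoter (GRCh38.p14, chr13:80341077-80341376, minus strand, match beginning 142 bases before the start site): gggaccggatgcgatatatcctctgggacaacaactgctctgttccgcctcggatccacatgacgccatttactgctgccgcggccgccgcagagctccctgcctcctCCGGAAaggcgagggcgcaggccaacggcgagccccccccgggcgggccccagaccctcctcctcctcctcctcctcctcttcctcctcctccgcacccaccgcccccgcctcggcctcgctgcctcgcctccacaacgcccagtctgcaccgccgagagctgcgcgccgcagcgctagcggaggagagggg
The other SPRY1 start site and the other SPRY2 start sites had no match. The AP-1 motif TGACTCA, read on both strands, stood in 1 of the 10 promoters (the downstream start site of SPRED2), against 4.95% of all promoters. The cAMP response element TGACGTCA, its own reverse complement, stood in 0 of the 10, against 1.85%. A match to CCGGAA cannot overlap a match to either of these.

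Library totals ran between 14794134 and 22796553 counted reads on days 3 and 5 and between 14090004 and 20445875 on days 7, 11 and 0. The labelled cell states were checked on summed FPKM of marker genes. The 10 pluripotency factors summed to 2470 and 2480 FPKM in undifferentiated cells, and to no more than 69 FPKM in any library of day 11. The sum of 10 heart muscle markers (TNNT2, MYH6, MYH7 and others) differed between treatments on days 7 and 11, although every group carries the cardiac differentiation label. On day 11 it was 7990 and 8880 FPKM with IWP2, NaHCO3 and 2-DG, 490 and 508 FPKM with IWP2 and NaHCO3, 4920 and 5010 FPKM with IWP2, 7210 and 7220 FPKM with HCl, 150 and 167 FPKM with NaHCO3, and 803 and 1090 FPKM in the control. The 2 libraries of IWP2, NaHCO3 and 2-DG stood apart on day 3 (6.29 and 12.74 FPKM of SPRED2) and on day 11 (17.30 and 6.15 FPKM of ETV5), and they enter the shared estimate of spread. Without the day 11 pair no call in the other comparisons was lost and 7 were gained, among them ETV5 with NaHCO3 on day 7 (log2 fold change -1.0, edgeR adjusted p = 1.22e-05, against -1.03 and 0.106 with the pair). Without the day 3 pair none was lost and 1 was gained. The libraries are of bulk RNA, so fewer cells of a type and less RNA per cell cannot be told apart in any of the results that follow.

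Across the 25 groups the members fell into widely ranging and narrowly ranging genes. The ratio of the highest to the lowest group mean was 179 for ETV4, 112 for SPRY4, 104 for DUSP6 and 58.6 for DUSP5, against 28.4 for DUSP4, 23.2 for ETV5, 21.1 for SPRY1, 5.25 for SPRED2, 4.58 for SPRY2 and 3.98 for SPRED1. Libraries of a group lay close together, with a median ratio of the higher to the lower library between 1.05 (SPRY2) and 1.14 (DUSP5 and ETV4). Treatment with NaHCO3 alone on day 11 gave the lowest mean of 6 members, among them 1.51 ± 0.255 FPKM for DUSP6, 0.355 ± 0.0212 FPKM for SPRY4 and 0.745 ± 0.148 FPKM for ETV5 (SD, n = 2 each). The highest means were spread over more conditions. SPRY1, SPRY4, SPRED1 and ETV4 were highest in undifferentiated cells, DUSP6, SPRED2 and ETV5 with IWP2 on day 7, DUSP4 with HCl on day 3, DUSP5 with HCl on day 5, and SPRY2 with NaHCO3 on day 3. When the 25 groups were put in order of a member's level, between 11 (DUSP6) and 19 (SPRED1) of the 24 pairs of neighbours overlapped in their library values, so the order is resolved only in steps.

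**Figure D1:**
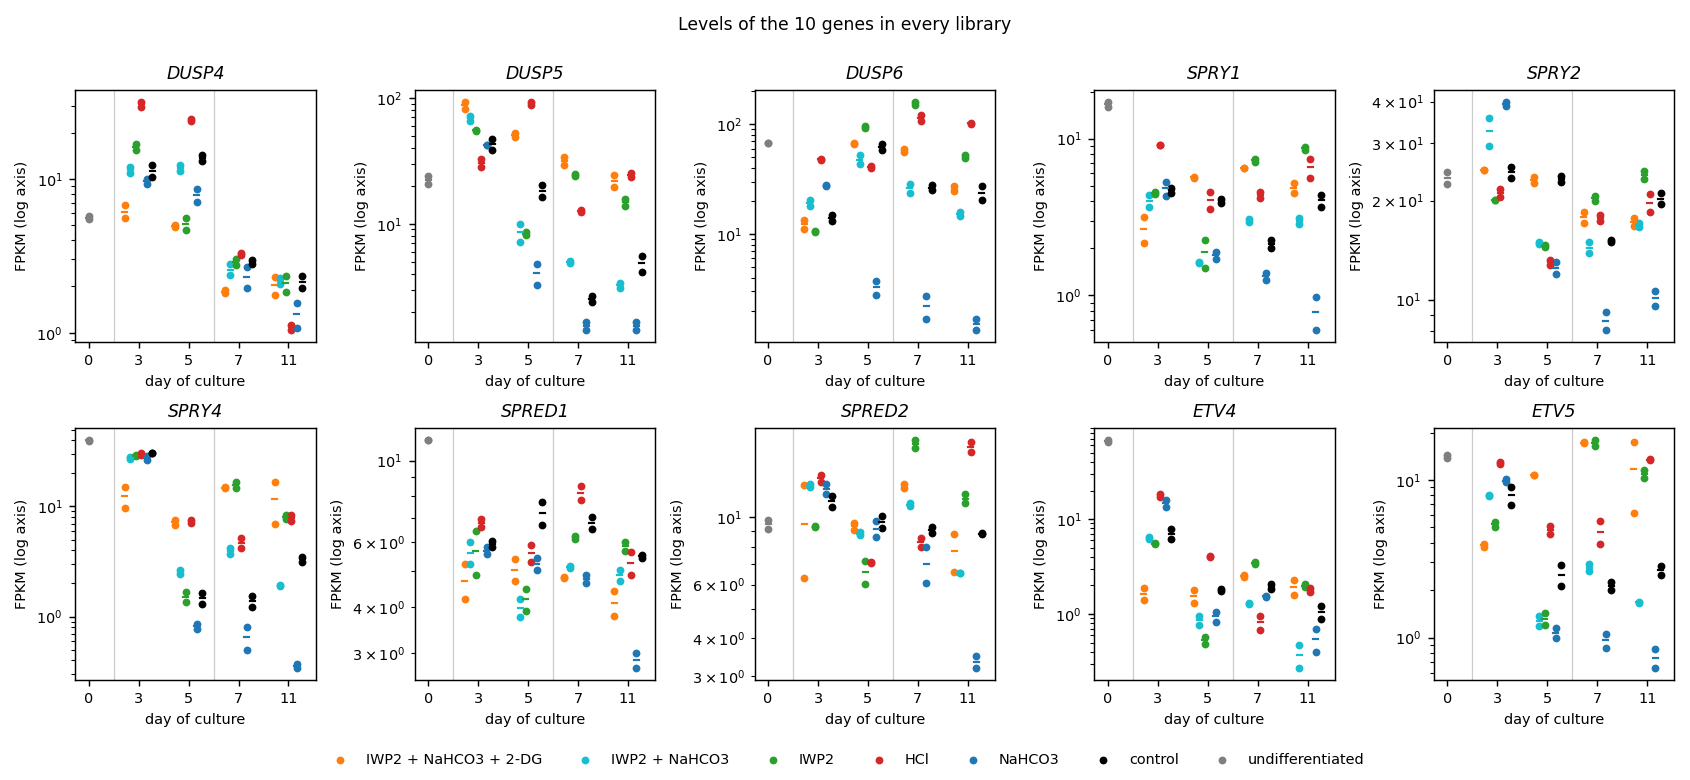
FPKM of the 10 genes (vertical axes, logarithmic) in every library against the day of culture (horizontal axes, days not to scale); points are single libraries, short bars are group means of 2 libraries, colours are treatments, and grey lines separate day 0 and the deposited tables. NaHCO3 alone lies lowest for DUSP6 on days 5, 7 and 11, where its libraries lie between 1.33 and 3.75 FPKM, and the narrow ranges of SPRY2 and SPRED1 stand beside the wide ones of SPRY4 and ETV4.

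DUSP6 (chr12:89741009-89747048 on GRCh37, minus strand) is given in full, library by library. On day 3 it had 11.13 and 13.39 FPKM with IWP2, NaHCO3 and 2-DG, 20.35 and 18.05 with IWP2 and NaHCO3, 10.60 and 10.50 with IWP2, 47.11 and 48.63 with HCl, 27.19 and 28.16 with NaHCO3, and 13.20 and 14.84 in the control. On day 5 the same order of groups gave 67.90 and 65.60 FPKM with the 3 agents, 52.13 and 43.44 with IWP2 and NaHCO3, 91.92 and 96.04 with IWP2, 41.63 and 40.22 with HCl, 2.79 and 3.75 with NaHCO3, and 66.02 and 58.82 in the control. The NaHCO3 libraries were thus above the control on day 3 and far below it on day 5, with no overlap on either day. On day 7 DUSP6 stood at 59.22 and 56.41 FPKM with the 3 agents, 23.84 and 28.52 with IWP2 and NaHCO3, 161.26 and 151.39 with IWP2, 108.25 and 121.36 with HCl, 2.75 and 1.68 with NaHCO3, and 25.00 and 27.82 in the control. On day 11 the values were 24.48 and 27.35 FPKM with the 3 agents, 14.66 and 15.71 with IWP2 and NaHCO3, 49.52 and 52.93 with IWP2, 103.67 and 99.90 with HCl, 1.33 and 1.69 with NaHCO3, and 20.45 and 27.16 in the control. Undifferentiated cells had 67.23 and 67.67 FPKM. On days 7 and 11 HCl and IWP2 lay above the control and NaHCO3 below it, while the libraries of IWP2 with NaHCO3 lay on either side of the control's on day 7 and below them on day 11.

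A gene was called changed in a comparison when the edgeR quasi-likelihood test gave a Benjamini-Hochberg adjusted p under 0.05 over all genes of its table and the log2 fold change reached 1 in either direction. In the 24 pairwise comparisons this called 98 of 240 member values, against 14.6% of the values of all genes in the same comparisons. In all 98 the libraries of the groups compared did not overlap, as in 99.8% of the called values of all genes. Over the 20 comparisons of a treatment with its own reference, in which 77 of 200 member values were called against 12.3% over all genes, DUSP5 was called in 13 (8 higher, 5 lower), DUSP6 in 13 (7 higher, 6 lower), SPRY4 in 12 (8 higher, 4 lower), SPRY1 in 11 (6 higher, 5 lower), ETV5 in 11 (7 higher, 4 lower) and ETV4 in 10 (5 higher, 5 lower). DUSP4 was called in 4 and SPRED2 in 3. SPRY2 and SPRED1 were called in 0 of 20 by edgeR, with log2 fold changes that stayed between -0.85 and 0.81 and between -0.77 and 0.51. Without the fold limit SPRY2 passed in 14 and SPRED1 in 8 of the 20 (16 and 11 at an unadjusted p under 0.05), where 34.2% of the values of all genes passed. DESeq2 and limma also called 0 of 20 for both with the limit, apart from 1 SPRY2 value with limma at a pseudocount of 0.1.

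**Figure D2:**
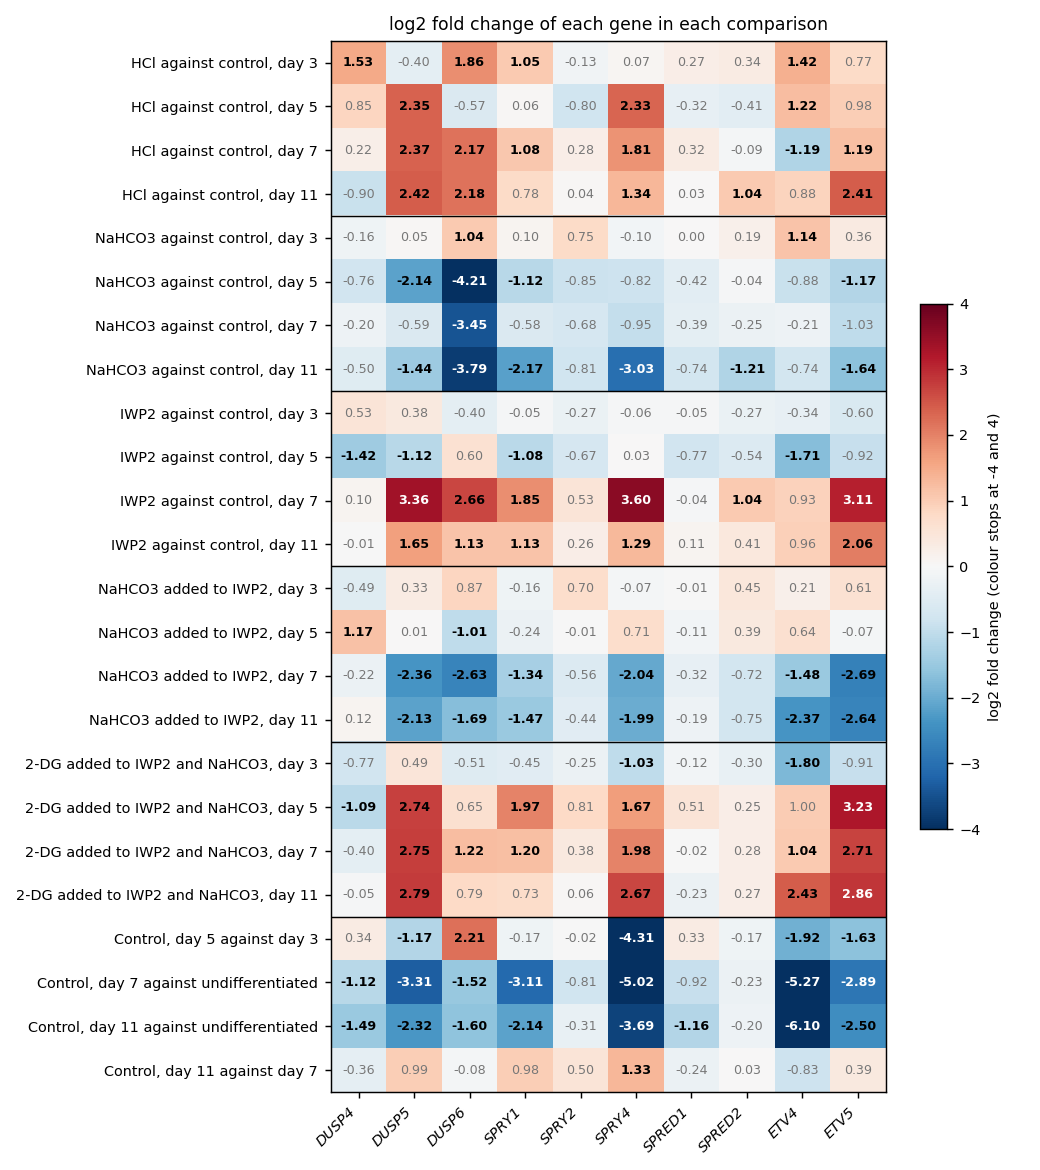
log2 fold change of each gene (columns) in each pairwise comparison (rows), the first-named group over the second; colour gives the size and stops at -4 and 4, and bold numbers are the called values. DUSP5, DUSP6, SPRY4 and ETV5 carry most of the strong colours, and SPRY2 and SPRED1 have no bold value in the 20 treatment comparisons.

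The differentiation control served as the reference for most comparisons, and its own course was steep. By day 7, 7 of the 10 members had fallen relative to undifferentiated cells and none had risen, against 15.6% of all genes lower and 19.3% higher (34.9% called). By day 11, 8 had fallen and none had risen, against 16.6% lower and 22.8% higher (39.4% called). The ETS factor gene ETV4 (chr17:41605212-41656988, minus strand) was at 2.07 and 1.82 FPKM on day 7 and 0.88 and 1.21 FPKM on day 11, against 68.75 and 64.07 FPKM in undifferentiated cells. Its log2 fold changes were -5.27 ± 0.15 and -6.10 ± 0.16 (SE; edgeR adjusted p = 2.04e-23 and 3.89e-24), the largest falls of any member. SPRY4 (chr5:141689992-141706020, minus strand) was at 1.21 and 1.53 FPKM on day 7, against 40.52 and 39.11 FPKM in undifferentiated cells (log2 fold change -5.02 ± 0.34, edgeR adjusted p = 5.32e-09). DUSP5, SPRY1 and ETV5 fell by 3.31, 3.11 and 2.89 on the log2 scale at day 7, and DUSP6 and DUSP4 fell by 1.52 and 1.12. SPRED2, with 9.30 and 8.89 FPKM on day 7 and 9.83 and 9.12 FPKM in undifferentiated cells, was not called on either day (-0.23 and -0.20), nor was SPRY2 (-0.81 and -0.31). SPRED1 was at -0.92 on day 7 and was called on day 11 (-1.16 ± 0.08). The other log2 fold changes on day 11 were -3.69 for SPRY4, -2.5 for ETV5, -2.32 for DUSP5, -2.14 for SPRY1, -1.60 for DUSP6 and -1.49 for DUSP4, all called. The falls ran beside that of the pluripotency factors, whose sum was 238 and 244 FPKM on day 7 against 2470 and 2480 FPKM at day 0, and the part of this in the members' falls was not tested.

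Between days 3 and 5 of the control the members parted. DUSP6 rose, with 66.02 and 58.82 FPKM on day 5 against 13.20 and 14.84 FPKM on day 3 (log2 fold change 2.21 ± 0.13, edgeR adjusted p = 3.45e-11). SPRY4 fell to 1.65 and 1.31 FPKM on day 5, against 30.31 and 30.80 FPKM on day 3 (-4.31 ± 0.15, edgeR adjusted p = 4.03e-14). DUSP5, ETV4 and ETV5 fell as well, by 1.17, 1.92 and 1.63 on the log2 scale, so that 1 member rose and 4 fell, against 10.4% of all genes higher and 7.74% lower (18.1% called). The other 5 lay between -0.17 and 0.34. DUSP6 and SPRY4, both inhibitors of the same cascade, therefore moved in opposite directions over the same days. Between days 7 and 11 the only member called was SPRY4, with 3.12 and 3.5 FPKM on day 11 against 1.21 and 1.53 FPKM on day 7 (1.33 ± 0.37, edgeR adjusted p = 0.0125), where 10.4% of all genes were called (7.64% higher, 2.76% lower). That call ended without day 11 replicate 2 (adjusted p = 0.0651) and without day 7 replicate 1 (adjusted p = 0.0854). DUSP5 (0.99, adjusted p = 9.88e-06) and SPRY1 (0.98, adjusted p = 2.37e-06) lay just under the fold limit. DUSP5 was called with DESeq2, with RLE scaling, and without day 11 replicate 1 (1.21) or day 7 replicate 1 (1.06), and SPRY1 without day 11 replicate 2 or day 7 replicate 2 (1.07 each). Without the 2-DG libraries of day 11 all 3 were called (1.02 for DUSP5, 1.01 for SPRY1). ETV4, at -0.83, was called lower without day 11 replicate 2 (-1.09), and the other members lay between -0.36 (DUSP4) and 0.50 (SPRY2).

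HCl raised between 3 and 5 members on each day, most often DUSP5, DUSP6 and SPRY4 (3 of 4 days each). It was compared with the control of the same day, in the absence of a WNT inhibitor. On day 3, 4 members rose and none fell (5.94% of all genes higher, 4.67% lower, 10.6% called); on day 5, 3 rose and none fell (9.84% higher, 10.2% lower, 20% called); on day 7, 5 rose and 1 fell (6.36% higher, 7.96% lower, 14.3% called); and on day 11, 5 rose and none fell (8.37% higher, 12.7% lower, 21.1% called). The median log2 fold change of the 10 members was 0.55, 0.46, 0.70 and 0.96 on the 4 days, while the median over all genes tested stayed within 0.05 of 0 in every comparison.

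Among the phosphatases under HCl, DUSP6 rose on days 3, 7 and 11 by 1.86 ± 0.13, 2.17 ± 0.16 and 2.18 ± 0.16 on the log2 scale (edgeR adjusted p = 2.58e-09, 6.93e-09 and 3.81e-09), but on day 5 its value was -0.57 ± 0.12 and not called. DUSP5 (chr10:112257596-112271302, plus strand) did the reverse at first. It had 28.07 and 32.78 FPKM with HCl and 46.80 and 38.44 FPKM in the control on day 3, and 88.25 and 93.31 FPKM with HCl against 20.40 and 16.17 FPKM in the control on day 5. Its log2 fold change was -0.40 on day 3 (not called), 2.35 ± 0.18 on day 5, 2.37 ± 0.14 on day 7 and 2.42 ± 0.13 on day 11 (edgeR adjusted p = 1.38e-09, 3.87e-14 and 9.22e-16 on the last 3). The difference between the effects on days 5 and 3 was itself called for DUSP5 (2.75 ± 0.24, edgeR adjusted p = 4.96e-08) and for DUSP6 (-2.43 ± 0.17, adjusted p = 3.84e-09), as it was for SPRY4, so that 3 members were called where 16.4% of all genes were (8.35% higher, 8.09% lower). DUSP4 (chr8:29190581-29208185, minus strand) was called on day 3 only, at 29.59 and 31.99 FPKM with HCl against 10.25 and 12.29 FPKM in the control (1.53 ± 0.12, edgeR adjusted p = 1.42e-08). It was also higher on day 5 but under the fold limit, at 23.81 and 24.72 FPKM against 14.39 and 13.18 FPKM (0.85, edgeR adjusted p = 5.94e-06). On day 11 it was at 1.13 and 1.04 FPKM with HCl and 2.34 and 1.95 FPKM in the control (-0.90, edgeR adjusted p = 9.86e-05, under the fold limit). Its value on day 7 was 0.22, not called.

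Among the Sprouty genes under HCl, SPRY4 was level on day 3 (0.07) and rose on days 5, 7 and 11. It had 7.07 and 7.54 FPKM with HCl on day 5, against 1.65 and 1.31 FPKM in the control (2.33 ± 0.15, edgeR adjusted p = 1.08e-10), and 8.38 and 7.43 FPKM with HCl on day 11, against 3.12 and 3.5 FPKM in the control (1.34 ± 0.31, adjusted p = 0.00217). In the control the mean of SPRY4 was 30.6 FPKM on day 3 and 1.48 FPKM on day 5, and with HCl it was 30.2 and 7.3 FPKM. The HCl groups of days 3 and 5 were not tested against each other. SPRY1 (chr4:124317950-124324910, plus strand) rose on day 3, at 9.16 and 9.12 FPKM with HCl against 4.47 and 4.88 FPKM in the control, and on day 7, at 4.17 and 4.60 FPKM with HCl against 2.01 and 2.27 FPKM in the control. Both SPRY1 calls were near the fold limit (1.05 and 1.08). They ended without control replicate 1 of day 3 (0.98), without control replicate 1 of day 7 (0.99) and without HCl replicate 2 of day 7 (1.0 after rounding). SPRED2 (chr2:65537985-65659771, minus strand) rose on day 11 with 16.47 and 17.75 FPKM under HCl, against 8.78 and 8.90 FPKM in the control (1.04 ± 0.11, edgeR adjusted p = 3.84e-09), a call that ended without HCl replicate 2 (0.98). On days 3, 5 and 7 SPRED2 was at 0.34, -0.41 and -0.09. SPRY4 on day 7 rose by 1.81 ± 0.36 (edgeR adjusted p = 0.000915), and SPRY1 was at 0.06 on day 5 and 0.78 on day 11, not called. SPRY2 (-0.13, -0.80, 0.28 and 0.04 on the 4 days) and SPRED1 (0.27, -0.32, 0.32 and 0.03) were called on none.

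ETV4 changed sign under HCl over the 4 days, while ETV5 was positive on each. ETV4 had 16.96 and 18.50 FPKM with HCl on day 3 against 6.17 and 7.87 FPKM in the control (1.42 ± 0.17, edgeR adjusted p = 2.11e-06), and 4.0 and 4.07 FPKM with HCl on day 5 against 1.83 and 1.73 FPKM in the control (1.22 ± 0.19). On day 7 it fell to 0.68 and 0.96 FPKM with HCl, against 2.07 and 1.82 FPKM in the control (-1.19 ± 0.21, edgeR adjusted p = 1.96e-05, ended without HCl replicate 1 at -0.95). On day 11 its value was 0.88 and not called, and the effect on day 11 minus that on day 7 was 2.07 ± 0.29 (edgeR adjusted p = 8.95e-07), 1 of 3 members called in that difference, where 17.1% of all genes were called (7.12% higher, 9.96% lower). ETV5 (chr3:185764097-185828107, minus strand) had 13.35 and 13.52 FPKM with HCl on day 11, against 2.51 and 2.84 FPKM in the control (2.41 ± 0.35, edgeR adjusted p = 3.89e-05). On days 3 and 5 its values were 0.77 and 0.98, not called, and the second was called in 5 of the alternatives with the fold limit (RLE scaling, DESeq2, no filter, and without control replicate 1 or HCl replicate 2). Its call on day 7 (1.19 ± 0.38, adjusted p = 0.0212) ended when any of 3 of the 4 libraries was left out (adjusted p between 0.0704 and 0.141) and with no filter on low genes (0.0593).

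Other cell markers differed with HCl as well. On day 3 the pluripotency factors summed to 838 and 957 FPKM with HCl, against 602 and 670 FPKM in the control, neural and ectoderm markers to 335 and 360 FPKM against 190 and 200 FPKM, and 8 stress response genes (ATF3, DDIT3, GDF15 and others) to 64.7 and 66.7 FPKM against 20.8 and 21.2 FPKM. On day 5 the pluripotency sum was 512 and 519 FPKM with HCl, against 393 and 416 FPKM in the control, and the neural sum 264 and 273 FPKM against 98.3 and 110 FPKM. Heart muscle markers summed to 1210 and 1680 FPKM with HCl on day 7, against 552 and 624 FPKM in the control, and to 7210 and 7220 FPKM against 803 and 1090 FPKM on day 11, with 0 of 10 markers at 0 in any of these libraries. Stromal and matrix markers summed to 371 and 384 FPKM with HCl on day 11, against 3240 and 3250 FPKM in the control, and liver and foregut markers to 234 and 383 FPKM against 4690 and 5550 FPKM. On day 5 the heart muscle sum was lower with HCl (444 and 461 FPKM) than in the control (646 and 658 FPKM), while the stress response genes summed to 250 and 299 FPKM with HCl against 20.5 and 21.4 FPKM in the control. Their part in the members' changes was not tested.

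NaHCO3 alone gave 11 falls and 2 rises among 40 values of members by day, the falls in 6 members (DUSP5, DUSP6, SPRY1, SPRY4, SPRED2 and ETV5). On day 3, 2 members rose and none fell (2.29% of all genes higher, 1.8% lower, 4.08% called); on day 5, 4 fell and none rose (3.67% lower, 2.72% higher, 6.39% called); on day 7, 1 of 10 fell, a share like that of all genes called (5.15% lower, 5.08% higher, 10.2% called); and on day 11, 6 fell and none rose (10.2% lower, 6.7% higher, 16.9% called). The median log2 fold change of the members was 0.15, -0.87, -0.58 and -1.32 on the 4 days.

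DUSP6 fell most, by 4.21 ± 0.14, 3.45 ± 0.19 and 3.79 ± 0.20 on the log2 scale on days 5, 7 and 11 (SE; edgeR adjusted p = 4.35e-13, 3.72e-10 and 1.11e-10), on the values given above. On day 3 it had risen by 1.04 ± 0.12 (edgeR adjusted p = 9.8e-06). DUSP5 fell to 3.26 and 4.81 FPKM with NaHCO3 on day 5, against 20.40 and 16.17 FPKM in the control (-2.14 ± 0.19, edgeR adjusted p = 8.58e-08), and to 1.66 and 1.44 FPKM on day 11, against 4.14 and 5.53 FPKM in the control (-1.44 ± 0.18). DUSP4 did not pass on any day (between -0.76 and -0.16).

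SPRY4 fell to 0.37 and 0.34 FPKM with NaHCO3 on day 11, against 3.12 and 3.5 FPKM in the control (-3.03 ± 0.49, edgeR adjusted p = 0.000113). SPRY1 fell to 0.60 and 0.97 FPKM on day 11, against 4.38 and 3.69 FPKM in the control (-2.17 ± 0.17, edgeR adjusted p = 5.82e-12), and to 1.89 and 1.71 FPKM on day 5, against 4.12 and 3.90 FPKM (-1.12 ± 0.18). SPRED2 fell on day 11, with 3.18 and 3.49 FPKM against 8.78 and 8.90 FPKM in the control (-1.21 ± 0.12, edgeR adjusted p = 2.98e-09). In each of these the groups stood apart. SPRY2 (chr13:80910111-80915086, minus strand) and SPRED1 (chr15:38544527-38649450, plus strand) stayed under the fold limit, although SPRY2 on day 11 had 10.58 and 9.58 FPKM with NaHCO3 and 19.51 and 21.05 FPKM in the control (-0.81 ± 0.09, edgeR adjusted p = 2.62e-09), and SPRED1 was at -0.74. The members not called lay between -0.16 and 0.75 (SPRY2) on day 3 and between -0.88 (ETV4) and -0.04 (SPRED2) on day 5. On day 7 they lay between -1.03 (ETV5, adjusted p = 0.106) and -0.20 (DUSP4).

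ETV5 fell to 1.00 and 1.15 FPKM with NaHCO3 on day 5, against 2.87 and 2.11 FPKM in the control (-1.17 ± 0.16, edgeR adjusted p = 3.06e-05), and to 0.64 and 0.85 FPKM on day 11, against 2.51 and 2.84 FPKM (-1.64 ± 0.49, adjusted p = 0.011). ETV4 was at -0.74 on day 11 and was called on day 3 only, as a rise, at 13.56 and 16.07 FPKM with NaHCO3 against 6.17 and 7.87 FPKM in the control (1.14 ± 0.16, edgeR adjusted p = 8.43e-05). Both rises on day 3 ended without control replicate 1 (0.94 for DUSP6, 0.96 for ETV4). The ETV5 calls ended without control replicate 1 on day 5 (-0.93), and on day 11 without NaHCO3 replicate 1 (adjusted p = 0.078) or with day 11 fitted alone (0.0883).

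The stromal and matrix markers moved the other way. They summed to 6850 and 7050 FPKM with NaHCO3 on day 11, against 3240 and 3250 FPKM in the control, and to 2620 and 2700 FPKM on day 5, against 927 and 1050 FPKM. Heart muscle markers summed to 150 and 167 FPKM with NaHCO3 on day 11, against 803 and 1090 FPKM in the control, with 0 of 10 at 0 in any of these libraries. The part of these shifts in the members' falls was not tested. HCl and NaHCO3 share the control libraries, so their effects are set side by side and not compared: on day 11 DUSP6 was 2.18 with HCl and -3.79 with NaHCO3, DUSP5 2.42 and -1.44, SPRY4 1.34 and -3.03, and ETV5 2.41 and -1.64 on the log2 scale.

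IWP2, the WNT inhibitor, lowered 4 members on day 5 and raised 6 on day 7 and 5 on day 11. On day 3, 0 of 10 members were called by edgeR, DESeq2 or limma, where 0.613% of all genes were called (0.162% higher, 0.451% lower). In the edgeR test 5 had an unadjusted p under 0.05, and 2 an adjusted p under 0.05 (DUSP4 at 0.53 and ETV5 at -0.60). On day 5, 4 fell and none rose (4.84% of all genes lower, 1.93% higher, 6.77% called). On day 7, 6 rose and none fell (8.5% higher, 7.95% lower, 16.4% called), and on day 11, 5 rose and none fell (6.24% higher, 8.68% lower, 14.9% called). The median log2 fold change of the members was -0.16, -0.84, 1.45 and 1.04 on the 4 days.

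The fall on day 5 took DUSP4 to 4.68 and 5.58 FPKM with IWP2, against 14.39 and 13.18 FPKM in the control (-1.42 ± 0.12, edgeR adjusted p = 5.98e-08), and ETV4 to 0.58 and 0.49 FPKM, against 1.83 and 1.73 FPKM (-1.71 ± 0.23, adjusted p = 1.75e-05). DUSP5 (-1.12 ± 0.18) and SPRY1 (-1.08 ± 0.18) fell as well, calls that ended without control replicate 1 (-0.95 for DUSP5) and without IWP2 replicate 1 (-0.80 for SPRY1). DUSP6 stood apart from these on day 5, at 0.60 and not called, and SPRY4 was at 0.03. ETV5 (-0.92), SPRED1 (-0.77), SPRY2 (-0.67) and SPRED2 (-0.54) were under the fold limit. The IWP2 effect on day 5 minus that on day 3 was called for DUSP4 (-1.95 ± 0.17), DUSP5 (-1.51 ± 0.24), SPRY1 (-1.04 ± 0.25) and ETV4 (-1.37 ± 0.29), where 4.52% of all genes were called (1.51% higher, 3.01% lower). The SPRY1 difference ended without IWP2 replicate 1 of day 5 (-0.76), without control replicate 1 of day 3 (-0.96) and without control replicate 1 of day 5 (-1.0 after rounding). DUSP6 differed the other way by almost exactly the limit (1.0 after rounding, adjusted p = 0.000878, not called). It was called with no filter (1.02), without the 2-DG libraries of day 3, and without any 1 of 4 libraries (between 1.01 and 1.1).

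On day 7 SPRY4 rose most, to 16.71 and 14.71 FPKM with IWP2, against 1.21 and 1.53 FPKM in the control (3.60 ± 0.34, edgeR adjusted p = 5.42e-07). DUSP5 had 24.97 and 23.96 FPKM with IWP2 against 2.68 and 2.41 FPKM in the control (3.36 ± 0.14, edgeR adjusted p = 5.5e-18), and ETV5 had 18.04 and 16.48 FPKM against 2.00 and 2.25 FPKM (3.11 ± 0.36, adjusted p = 4.76e-06). For SPRY4 and DUSP5 these were the largest rises in the 20 treatment comparisons, and in all 3 the groups stood apart. DUSP6 rose by 2.66 ± 0.16, SPRY1 by 1.85 ± 0.14 and SPRED2 by 1.04 ± 0.11, the last of these ended without IWP2 replicate 1 (0.99). On day 11 the rises were smaller: ETV5 2.06 ± 0.35, DUSP5 1.65 ± 0.13, SPRY4 1.29 ± 0.31, SPRY1 1.13 ± 0.13 and DUSP6 1.13 ± 0.15, the last ended without control replicate 1 (0.92). The members not called were ETV4 (0.93 on day 7 and 0.96 on day 11), SPRY2 (0.53 and 0.26), SPRED1 (-0.04 and 0.11) and DUSP4 (0.10 and -0.01), with SPRED2 at 0.41 on day 11. The effect on day 11 minus that on day 7 was called for SPRY4 (-2.31 ± 0.47), DUSP5 (-1.71 ± 0.20) and DUSP6 (-1.53 ± 0.21), where 5.79% of all genes were called (1.27% higher, 4.52% lower).

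On day 5, when 4 members fell, liver and foregut markers summed to 50.5 and 52.2 FPKM with IWP2, against 336 and 388 FPKM in the control, and heart muscle markers to 1150 and 1380 FPKM against 646 and 658 FPKM. Heart muscle markers stood at 6870 and 7470 FPKM with IWP2 on day 7 against 552 and 624 FPKM in the control. On day 11 they stood at 4920 and 5010 FPKM against 803 and 1090 FPKM. Stromal and matrix markers summed to 365 and 546 FPKM with IWP2 on day 7, against 2450 and 2570 FPKM in the control, and liver and foregut markers to 160 and 399 FPKM against 1490 and 1510 FPKM. Endothelial markers summed to 226 and 243 FPKM with IWP2, against 140 and 142 FPKM in the control on day 7. None of the 10 heart muscle and 8 stromal markers was at 0 in these libraries. Their part in the members' changes with IWP2 was not tested.

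**Figure D3:**
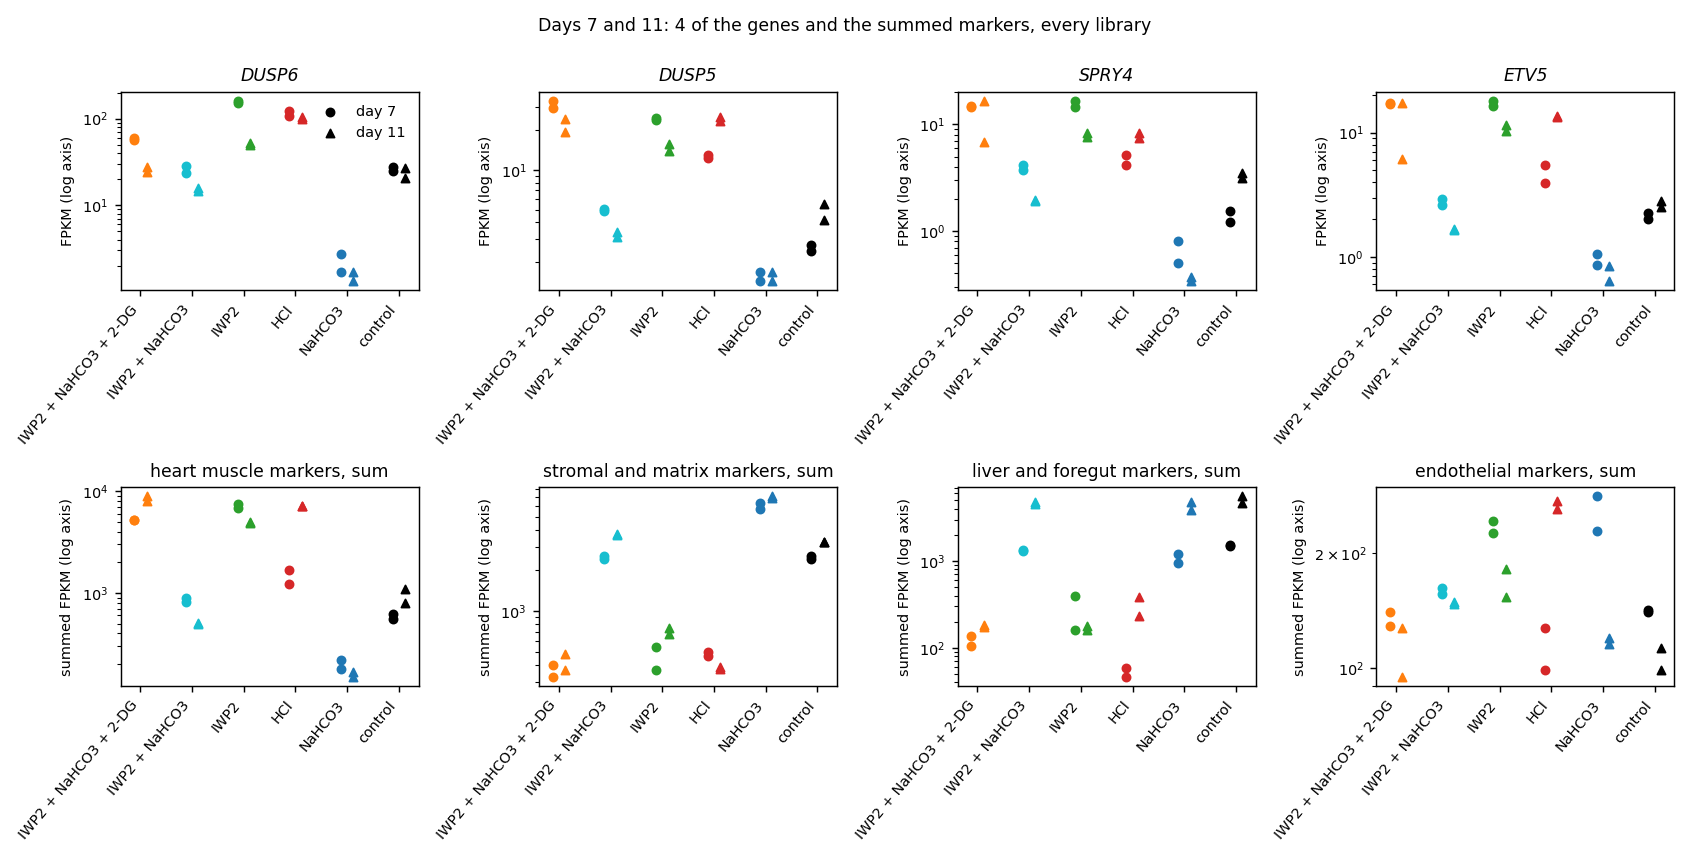
FPKM of 4 of the genes (top row) and summed FPKM of 4 lists of marker genes (bottom row) in every library of days 7 (circles) and 11 (triangles), by treatment on the horizontal axes; all vertical axes are logarithmic. The 3 agents, IWP2 and HCl have the highest heart muscle sums on both days, and at least 12.42 FPKM of DUSP5 in every library. DUSP6 with the 3 agents on day 11 (24.48 and 27.35 FPKM) overlaps the control (20.45 and 27.16 FPKM). SPRY4 with HCl on day 7 (4.18 and 5.18 FPKM) overlaps IWP2 with NaHCO3 (3.72 and 4.21 FPKM). NaHCO3 has the lowest DUSP6, DUSP5, SPRY4 and ETV5 together with the highest stromal sum.

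NaHCO3 added to IWP2 lowered members on days 7 and 11, relative to IWP2 alone. The IWP2 libraries also enter the comparisons of IWP2 with control, so an opposite sign in the pair is partly built in. On day 3, 0 of 10 members were called by edgeR, DESeq2 or limma, where 3.19% of all genes were called (1.9% higher, 1.29% lower). In the edgeR test 5 had an unadjusted p under 0.05, and 4 an adjusted p under 0.05 (DUSP6 0.87, SPRY2 0.70, ETV5 0.61 and DUSP4 -0.49). On day 5, DUSP4 rose, with 12.35 and 11.32 FPKM with both agents against 4.68 and 5.58 FPKM with IWP2 (1.17 ± 0.12, edgeR adjusted p = 9.37e-07), and DUSP6 fell (-1.01 ± 0.12), where 3.64% of all genes were higher and 2.17% lower (5.81% called). The other 8 lay between -0.24 (SPRY1) and 0.71 (SPRY4). The DUSP6 call on that day ended without IWP2 replicate 2 (-0.96) and without the IWP2 with NaHCO3 replicate 2 (-0.90). On day 7, 6 members fell and none rose (8.29% of all genes lower, 8.4% higher, 16.7% called), and on day 11, 6 fell and none rose (8.7% lower, 9.8% higher, 18.5% called). The members' median was 0.27, 0.00, -1.41 and -1.58 on the log2 scale on the 4 days.

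The 6 that fell were DUSP5, DUSP6, SPRY1, SPRY4, ETV4 and ETV5 on both days. ETV5 had 2.63 and 2.93 FPKM with both agents on day 7, against 18.04 and 16.48 FPKM with IWP2 (-2.69 ± 0.35, edgeR adjusted p = 1.44e-05), and 1.66 and 1.68 FPKM on day 11, against 10.29 and 11.55 FPKM (-2.64 ± 0.37, adjusted p = 3.38e-05). DUSP5 had 4.90 and 5.02 FPKM with both agents on day 7, against 24.97 and 23.96 FPKM with IWP2 (-2.36 ± 0.13, edgeR adjusted p = 2.22e-15). ETV4 had 0.27 and 0.47 FPKM with both agents on day 11, against 2.08 and 1.91 FPKM with IWP2 (-2.37 ± 0.24, edgeR adjusted p = 1.46e-09). In each of these cases the group values lay well apart. DUSP6 fell by 2.63 ± 0.16 and 1.69 ± 0.16, SPRY4 by 2.04 ± 0.30 and 1.99 ± 0.33, and SPRY1 by 1.34 ± 0.13 and 1.47 ± 0.13 on days 7 and 11. ETV4 fell by 1.48 ± 0.18 on day 7, and DUSP5 by 2.13 ± 0.14 on day 11. SPRY2, SPRED1, SPRED2 and DUSP4 stayed between -0.75 and 0.12 on these days.

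Whether NaHCO3 acted differently with and without IWP2 was tested as the difference of its effects. On day 3, 0 of 10 differences were called by edgeR, DESeq2 or limma, 1 had an unadjusted p under 0.05 in edgeR, and 0.399% of all genes were called (0.156% higher, 0.243% lower). On day 5, 6 were called, all positive, where 3.94% of all genes were called (3.19% higher, 0.752% lower): DUSP6 3.20 ± 0.18, DUSP5 2.14 ± 0.26, DUSP4 1.94 ± 0.17, SPRY4 1.54 ± 0.22, ETV4 1.51 ± 0.33 and ETV5 1.10 ± 0.23. On that day NaHCO3 lowered DUSP6 by 1.01 in the presence of IWP2 and by 4.21 in its absence, and DUSP5 had an effect of 0.01 with IWP2 and -2.14 without it. On day 7 the called differences were negative, DUSP5 -1.77 ± 0.24, ETV5 -1.66 ± 0.61 and ETV4 -1.27 ± 0.26, where 14.6% of all genes were called (7.85% higher, 6.78% lower). On day 11 they were DUSP6 2.10 ± 0.25 and ETV4 -1.63 ± 0.37, where 18.1% of all genes were called (11.8% higher, 6.33% lower). The ETV5 differences were the least firm, with an adjusted p of 0.00515 on day 5 and 0.0447 on day 7; the day 7 call ended when any 1 of the 8 libraries was left out, and the day 5 call when any of 4 was. The ETV4 difference on day 5 ended without replicate 1 of IWP2 with NaHCO3 (adjusted p = 0.0569).

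With NaHCO3 added to IWP2, heart muscle markers summed to 811 and 882 FPKM on day 7, against 6870 and 7470 FPKM with IWP2, and stromal and matrix markers to 2450 and 2580 FPKM, against 365 and 546 FPKM. On day 11 the heart muscle sum was 490 and 508 FPKM, against 4920 and 5010 FPKM, and the liver and foregut sum 4530 and 4850 FPKM, against 162 and 179 FPKM. Their part was not tested.

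2-DG on top of IWP2 and NaHCO3 raised 4 to 6 members from day 5 on. On day 3, 2 members fell and none rose (2.09% of all genes lower, 1.5% higher, 3.59% called). On day 5, 4 rose and 1 fell (7.04% higher, 9.42% lower, 16.5% called). On day 7, 6 rose and none fell (7.1% higher, 9.23% lower, 16.3% called), and on day 11, 4 rose and none fell (9.32% higher, 11.8% lower, 21.1% called). The members' median was -0.48, 0.91, 1.12 and 0.76 on the log2 scale. These comparisons share the libraries of IWP2 with NaHCO3 with the comparisons just above, so an opposite sign in the pair is partly built in.

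On day 3 ETV4 fell to 1.88 and 1.40 FPKM with the 3 agents, against 6.18 and 6.48 FPKM with IWP2 and NaHCO3 (-1.80 ± 0.19, edgeR adjusted p = 2.87e-06), and SPRY4 to 9.71 and 15.06 FPKM, against 27.15 and 28.03 FPKM (-1.03 ± 0.13, adjusted p = 2.9e-05, ended without replicate 1 of the 3 agents at -0.82). On day 5 ETV5 had 10.69 and 10.78 FPKM with the 3 agents, against 1.38 and 1.18 FPKM (3.23 ± 0.16, edgeR adjusted p = 4.65e-12), and DUSP5 had 52.53 and 49.23 FPKM against 9.95 and 7.17 FPKM (2.74 ± 0.18, adjusted p = 3.82e-10). On day 3 their values had been -0.91 and 0.49, not called, and the difference between the days was not tested. SPRY1 (1.97 ± 0.18) and SPRY4 (1.67 ± 0.14) rose on day 5 too, while DUSP4 fell to 4.88 and 5.02 FPKM, against 12.35 and 11.32 FPKM (-1.09 ± 0.12, edgeR adjusted p = 5.11e-07). Not called on day 5 were ETV4, just under the fold limit, SPRY2 (0.81), DUSP6 (0.65), SPRED1 (0.51) and SPRED2 (0.25), and on day 3 DUSP4, DUSP6, SPRY1, SPRY2, SPRED1 and SPRED2 lay between -0.77 and -0.12. The ETV4 value on day 5 was called higher without replicate 1 of the 3 agents (1.21) or of IWP2 with NaHCO3 (1.15).

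On days 7 and 11 DUSP5 rose by 2.75 ± 0.13 and 2.79 ± 0.14 (edgeR adjusted p = 7.06e-17 and 9.38e-17), with 29.49 and 33.63 FPKM with the 3 agents against 4.90 and 5.02 FPKM on day 7, and 24.43 and 19.54 FPKM against 3.11 and 3.38 FPKM on day 11. DUSP6 rose by 1.22 ± 0.15 on day 7 and was at 0.79 on day 11, not called. ETV4 rose on both days (1.04 ± 0.18 and 2.43 ± 0.25), the day 7 call ending without replicate 2 of the 3 agents (0.99), and SPRY1 rose on day 7 (1.2 ± 0.13). On day 7 ETV5 had 17.08 and 17.42 FPKM with the 3 agents, against 2.63 and 2.93 FPKM with IWP2 and NaHCO3 (2.71 ± 0.35, edgeR adjusted p = 1.35e-05), and SPRY4 had 14.96 and 14.69 FPKM against 3.72 and 4.21 FPKM (1.98 ± 0.30, adjusted p = 6.46e-05). Both stood apart from their comparison group in every library. On day 11 the 2 libraries of the 3 agents lay far apart for a pair of members: SPRY4 had 16.70 and 6.92 FPKM, against 1.9 and 1.94 FPKM with IWP2 and NaHCO3, and ETV5 had 17.30 and 6.15 FPKM, against 1.66 and 1.68 FPKM. Their log2 fold changes of 2.67 ± 0.33 and 2.86 ± 0.37 became 1.84 and 1.87 without replicate 1 of the 3 agents, and both stayed called. SPRY1 was at 0.73 on day 11, and SPRY2, SPRED1, SPRED2 and DUSP4 lay between -0.40 and 0.38 on both days. DUSP6 did not share the gap between the 2 libraries, with 24.48 and 27.35 FPKM in the same libraries.

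With 2-DG added, the stress response genes summed to 91.7 and 118 FPKM on day 3, against 16.7 and 19 FPKM with IWP2 and NaHCO3. Heart muscle markers summed to 1640 and 1780 FPKM on day 5, against 732 and 752 FPKM, to 5150 and 5180 FPKM on day 7, against 811 and 882 FPKM, and to 7990 and 8880 FPKM on day 11, against 490 and 508 FPKM. Stromal and matrix markers summed to 370 and 485 FPKM on day 11, against 3680 and 3750 FPKM. On day 5, the stress response genes summed to 458 and 469 FPKM with the 3 agents, against 25.2 and 25.5 FPKM with IWP2 and NaHCO3. Their part in the members' changes was not tested.

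The rest of the pathway did not move as a block. In the 20 treatment comparisons 12.3% of the values of all genes were called. Of 13 genes of the RAS to ERK cascade, all tested, at most 1 was called in any of them. They were MAP2K1, the gene of the kinase MEK1, on day 5 with HCl (42.2 FPKM against 11.6 FPKM in the control, 1.91, edgeR adjusted p = 3.89e-12) and with 2-DG (27.9 FPKM against 11.0 FPKM, 1.52), and the scaffold gene KSR1 on day 7 with NaHCO3 (6.97 FPKM against 3.20 FPKM, 1.25). FGF receptors and adaptors, 13 genes, had 0 higher and 4 lower on day 7 with IWP2, among them FGFR4 (1.82 FPKM against 11.2 FPKM in the control, -2.53), FGFR1 (10.1 against 33.7 FPKM, -1.65) and FGFR2 (21.2 against 58.6 FPKM, -1.37). With HCl on day 7, 0 were higher and 3 lower, FGFR4 and FGFR2 among them (-2.59 and -1.16). In these comparisons 6 and 5 of the feedback members rose. Over all genes 8.5% were higher and 7.95% lower with IWP2, and 6.36% and 7.96% with HCl.

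Ligand genes varied more. Of 22 FGF ligand genes, 10 were tested on days 3 and 5 and 11 on days 7 and 11. FGF8 had 13.5 FPKM with IWP2 on day 7 against 0.67 FPKM in the control (4.40, edgeR adjusted p = 5.96e-11), 15.2 FPKM with HCl against the same control (4.53, adjusted p = 4.07e-11), 1.10 FPKM with NaHCO3 and IWP2 against 13.5 FPKM with IWP2 (-3.66), and 8.57 FPKM with 2-DG added against 1.10 FPKM without it (3.03). FGF10 had 98.4 FPKM with HCl on day 7 against 7.12 FPKM in the control (3.84, edgeR adjusted p = 3.56e-23), and 2.05 FPKM with NaHCO3 on day 5 against 10.6 FPKM in the control (-2.33). On day 3 with HCl, FGF17 had 120 FPKM against 44.2 FPKM (1.52) while FGF8 had 6.66 FPKM against 19.4 FPKM (-1.46). In the list as a whole on day 7, 3 rose and 3 fell with HCl, and 4 rose and 1 fell with IWP2. There were 0 rises and 3 falls with NaHCO3, 2 and 3 with NaHCO3 added to IWP2, and 4 and 2 with 2-DG added. Over all genes 6.36% were higher and 7.96% lower with HCl, 8.5% and 7.95% with IWP2, and 5.08% and 5.15% with NaHCO3. With NaHCO3 added to IWP2 the shares were 8.4% and 8.29%, and with 2-DG added 7.1% and 9.23%.

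Other feedback and ETS genes did not follow the members as a list on day 11 with HCl or with NaHCO3 added to IWP2. Of 16, 14 were tested on days 7 and 11. With HCl on day 11, 1 rose and 6 fell, where 8.37% of all genes were higher and 12.7% lower. With NaHCO3 added to IWP2 on day 11, 5 rose and 2 fell, where 9.8% were higher and 8.7% lower. DUSP9, another ERK phosphatase, had 1.06 FPKM with IWP2 on day 11 against 13.4 FPKM in the control (-3.63, edgeR adjusted p = 3.56e-13) and 0.54 FPKM with 2-DG added against 5.06 FPKM without it (-3.19), opposite in sign to DUSP5 in both comparisons. FLRT3, an FGF receptor partner, also fell with IWP2 (8.47 against 36.6 FPKM, -2.09). ETV1, the third gene of the PEA3 subfamily, had 0.355 FPKM with NaHCO3 on day 11 against 14.6 FPKM in the control (-5.15, edgeR adjusted p = 4.51e-11), and 18.7 FPKM with IWP2 on day 7 against 6.35 FPKM in the control (1.65). Among 13 other ERK-responsive genes, 7 of 11 tested rose and 0 fell with HCl on day 5 (9.84% of all genes higher, 10.2% lower). They were led by FOSL1 (6.93 against 0.155 FPKM, 5.48), IER3 (98.9 against 9.84 FPKM, 3.37), EPHA2 (89.4 against 9.96 FPKM, 3.20) and MYC (19.7 against 2.28 FPKM, 3.16). On day 7 with IWP2, 0 of 10 tested were called by edgeR, DESeq2 or limma. Without the fold limit 5 passed at an adjusted p under 0.05 in edgeR, and the same number at an unadjusted p under 0.05. At an adjusted p under 0.05, 5 passed in DESeq2, and 6 and 7 in limma with pseudocounts of 1 and 0.1. In that comparison 6 of the 10 feedback members rose, and 16.4% of all genes were called by edgeR.

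Members' levels were correlated within each table. Pearson's r of log2(FPKM + 1) group means, over the 12 groups of days 3 and 5, had a median of 0.54 over the 45 pairs of members, with 39 positive and 4 over 0.8. Over the 13 groups of days 7, 11 and 0, which share no library with the others, the median was 0.71, with 45 positive and 13 over 0.8. The closest pairs in that table were DUSP5 with ETV5 (0.98) and SPRY1 with SPRY4 (0.95), and on days 3 and 5 SPRY1 with ETV5 (0.91). DUSP6 went its own way on days 3 and 5, with r between -0.21 (SPRED2) and 0.20 (SPRY1), and on days 7, 11 and 0 its r lay between 0.32 (DUSP4) and 0.84 (SPRY2). DUSP4 was the loosest in the table of days 7, 11 and 0, at 0.09 with SPRED2 and 0.14 with DUSP5. These are descriptions over groups that share controls of culture, depth and day, and carry no test. The spread of r over pairs of other genes was not computed, so these values cannot be called particular to the members.

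**Figure D4:**
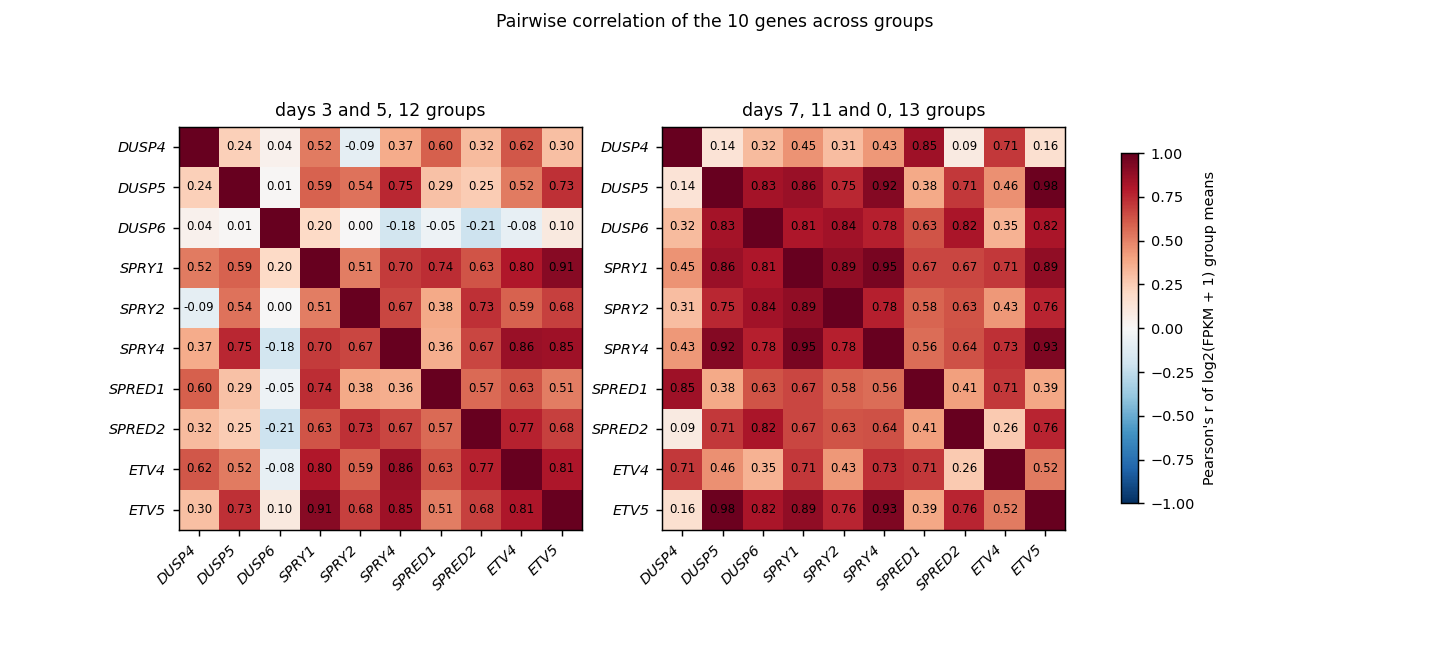
Pearson's r between each pair of the 10 genes over group means of log2(FPKM + 1), for days 3 and 5 (left, 12 groups) and for days 7, 11 and 0 (right, 13 groups); colour runs between -1 and 1. The row of DUSP6 is pale on the left, where r lies between -0.21 and 0.20, and dark for most partners on the right.

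Of 12931 genes ranked by the lower of their correlations in both tables, those most like DUSP6 were BMPR1A (0.837 over 12 groups and 0.924 over 13), PRKG1 (0.801 and 0.810), EFTUD1 (0.80 and 0.86), SLC19A2 (0.794 and 0.846) and C1GALT1 (0.802 and 0.789). Those most like the mean of the 10 standardised members were GPR27 (0.874 and 0.904), MARS2 (0.850 and 0.946), STYX (0.849 and 0.878), IL17RD (0.862 and 0.848) and SLC29A2 (0.844 and 0.872). IL17RD, also called SEF, is itself an inhibitor of FGF signalling. With a pseudocount of 0.1 BMPR1A and GPR27 stayed first, but RRAGD and SLC16A12 entered the first 5 of DUSP6, and ADCY1 and SLC35F1 those of the mean. IL17RD then left the first 5 of the mean for rank 9 and STYX for rank 7. For DUSP6, C1GALT1 went to rank 7 and SLC19A2 to rank 10.

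Some members overlap other genes on GRCh37, and the sources used here do not say if counting took account of strand. ETV4 lies over part of DHX8 on the opposite strand, which had between 4.81 and 10.87 FPKM in every library, above ETV4 itself in many, so the lowest ETV4 levels are uncertain. The genes that overlap SPRY4, SPRED2 and ETV5 had at most 0.90 FPKM in any library, while SPRY4 and ETV5 themselves went down to 0.34 and 0.64 FPKM, so their low levels are uncertain as well.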

How the data were processed

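RNA libraries were made from total RNA with a VAHTS Universal V8 kit, per the labels' protocols. The submitters' processing notes name cutadapt 1.9.1, HISAT2 2.0.1, HTSeq 0.6.1 and GRCh37. The deposited tables give raw read counts per gene, and the deposited FPKM are these counts divided by exon length and by the total count of the library. The table of days 3 and 5 (24 libraries) and that of days 7, 11 and 0 (26 libraries) were never tested against each other, and levels from both are set side by side only.

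Counts were tested with edgeR 4.0.16 (R 4.3.3; TMM scaling, robust quasi-likelihood fit, a mean for each group, each table fitted as a whole), after a filter of at least 1 FPKM in at least 2 libraries. Calls needed a Benjamini-Hochberg adjusted p under 0.05 over all genes tested and a log2 fold change that reached 1 in either direction. Differences of effects are interaction terms of the same fit. The fit was tested on simulated counts with known changes, for HCl against control on days 3 and 11. Changes of 2-fold, the size of the limit, were called in 48% and 42% of cases, and changes of 3-fold in 92% and 100%. The changed genes excluded those with few reads. Alternatives were DESeq2 1.42.0, limma 3.58.1 on log2(FPKM + 1) or log2(FPKM + 0.1), RLE scaling, no filter, no fold limit, 1 day alone, a replicate block, and leaving out each library in turn. Leaving out the 2-DG libraries of day 11 was chosen after seeing the data. The members and lists were chosen with earlier results of these data known. All 10 members are covered in each pairwise comparison, by value or by range, and of the other lists at most 4 called genes with the largest fold change and at least 5 FPKM in the higher group.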

Additional observations from a re-analysis of the deposited data

Results flagged for a closer look

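In 24 of 80 values the effect of a treatment on a member differed between days, or with the presence of IWP2. The interaction test of edgeR was used (Benjamini-Hochberg adjusted p under 0.05, difference of at least 1 on the log2 scale). For HCl by day 6 of 20 values were called, against 16.8% over all genes. For IWP2 by day 7 of 20 were, against 5.18%, and for NaHCO3 by IWP2 11 of 40, against 9.5%. For NaHCO3 by IWP2 the share of all genes was 0.399%, 3.94%, 14.6% and 18.1% on the 4 days. No explanation was weighed. For HCl, the effect on day 5 minus that on day 3 was 2.75 for DUSP5, -2.43 for DUSP6 and 2.27 for SPRY4, and the effect on day 11 minus that on day 7 was 2.07 for ETV4, 1.12 for SPRED2 and -1.12 for DUSP4. DUSP6 under HCl was thus up by 1.86 on day 3 and at -0.57 on day 5, while DUSP5 was at -0.40 and then up by 2.35.

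For IWP2, day 5 minus day 3 gave -1.95 for DUSP4, -1.51 for DUSP5, -1.37 for ETV4 and -1.04 for SPRY1, and day 11 minus day 7 gave -2.31 for SPRY4, -1.71 for DUSP5 and -1.53 for DUSP6. The later differences are between rises of unequal size, for example 1.29 on day 11 and 3.60 on day 7 for SPRY4.

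For NaHCO3, the effect with IWP2 minus that without it was, on day 5, 3.20 for DUSP6, 2.14 for DUSP5, 1.94 for DUSP4, 1.54 for SPRY4, 1.51 for ETV4 and 1.10 for ETV5. On day 7 it was -1.77 for DUSP5, -1.66 for ETV5 and -1.27 for ETV4, and on day 11 it was 2.10 for DUSP6 and -1.63 for ETV4. DUSP6 differed in the same direction on days 5 and 11, with a smaller fall in the presence of IWP2.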

How the results depend on the processing

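Counts of members called, added over the days (of 40 values each, or 20 for a difference by day), were 18 for HCl, 13 for NaHCO3, 15 for IWP2, 14 for NaHCO3 added to IWP2, 17 for 2-DG and 21 for the control over time, and 6, 7 and 11 for the differences of the HCl effect by day, the IWP2 effect by day and the NaHCO3 effect by IWP2. Over all genes 16.5%, 9.53%, 9.88%, 11.3%, 14.5% and 25.8% of values were called, and 16.8%, 5.18% and 9.5%. With no minimum fold change these became 28, 27, 27, 24, 31 and 31, and 12, 11 and 21, where 42.1%, 30.8%, 27.9%, 30.7%, 39.3% and 53.2%, and 34.8%, 11.4% and 22.2% of the values of all genes passed. Leaving out 1 library at a time gave 16 to 20, 11 to 14, 14 to 16, 13 to 14, 16 to 18 and 21 to 22, and 6 to 7, 7 to 8 and 9 to 12. No called value reversed under any of the alternatives. Under the alternatives with the fold limit, 78 of 1520 values of called members lost their call and 54 of 2540 values of members not called gained one. limma on log2(FPKM + 1), which understates changes of low genes, called 12, 9, 11, 12, 15 and 18 members, and 6, 5 and 8 differences.

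A replicate block left every count as it was except for the NaHCO3 effect by IWP2, with 10 differences in place of 11 (ETV5 on day 7, adjusted p = 0.0514). Libraries with the same number did not deviate together (correlations between -0.044 and 0.071 over 24 comparisons). No pairing by number was thus seen, which cannot show that the numbers mark no shared culture or batch. The lowest levels rest on few reads: ETV4 at 0.27 and 0.47 FPKM (IWP2 with NaHCO3, day 11) is 20 and 31 reads, and SPRY4 at 0.37 and 0.34 FPKM (NaHCO3, day 11) is 40 and 36 reads.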
